A study of Mus musculus with 4 samples.

Results

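Cluster 1 is 1 of 23 numbered clusters of mouse kidney cortex nuclei in the authors' table and 1 of 6 that carry proximal tubule markers. Its members are the nuclei the authors placed in it, and the table gives them as 4 columns of mean levels, 1 per library. Those columns average 731 nuclei in Klf4 dEC, 776 in Nos3 null, 541 in Klf4 dEC Nos3 null and 756 in control, numbers inferred from the arithmetic of the deposited values. Cluster 1 thus holds 2804 of 26144 nuclei (10.7%) and 23.1% of the 12162 nuclei of the 6 proximal tubule clusters. Its share of proximal tubule nuclei was 22.2% in Klf4 dEC (20.8 to 23.6), 21.7% in Nos3 null (20.3 to 23.0), 24.9% in Klf4 dEC Nos3 null (23.1 to 26.8) and 24.3% in control (22.8 to 25.8), with exact 95% binomial intervals in brackets. These intervals cover the counting of nuclei within 1 library only. They leave out differences between mice and dissections, so they do not compare genotypes.

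The proximal tubule takes back most of the filtered glucose, amino acids, phosphate and bicarbonate, and secretes organic ions. Its early segments, S1 and S2, use high-capacity transporters, while the straight S3 segment uses high-affinity ones, carries brush border peptidases and, in mice, contains many genes whose level depends on sex hormones. Cyp7b1, the leading gene of cluster 1, is an oxysterol and steroid hydroxylase that is known to be higher in male than in female mouse kidney. Mep1b is the beta subunit of meprin, a metalloprotease of the brush border.

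The series sets Klf4, a zinc-finger transcription factor deleted in endothelium, against Nos3, the endothelial nitric oxide synthase gene. Klf4 dEC carries the endothelial Klf4 deletion, Nos3 null is Nos3-/-, Klf4 dEC Nos3 null combines both, and the control is Klf4flox/flox. All groups are labelled C57BL/6J. Sources used here give no Cre driver, no ages and no number of mice per library. Nuclei came from a small piece of perfused cortex stored in RNAlater and were read on the 10X Chromium system, which counts RNA molecules by unique molecular identifiers (UMIs). Every level below is the mean over nuclei of UMIs per 10000 UMIs. A mean level cannot tell more nuclei with an RNA from more RNA in each nucleus, and levels of different genes are not scaled for length.

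With 1 library per genotype no test between genotypes is possible, and a cluster set against others of the same clustering is no test. Differences are therefore given as sizes, and no p-value is printed. Cluster 1 nuclei had an inferred median of 6142 UMIs in Klf4 dEC, 3111 in Nos3 null, 8616 in Klf4 dEC Nos3 null and 7180 in control, so that 3 counts in a column correspond to levels of 0.00722, 0.0142, 0.00712 and 0.00591. The library labelled Nos3 null stood apart from the other 3. In cluster 1 its 13 mitochondrially encoded RNAs summed to 16.4 in Nos3 null, against 38.1 in Klf4 dEC, 37.9 in Klf4 dEC Nos3 null and 32.5 in control. In the same order of libraries, its 5 thick ascending limb markers summed to 8.28, against 2.71, 4.14 and 3.56, its 5 intercalated cell markers to 0.628, against 0.126, 0.0938 and 0.128 and its 5 endothelial markers to 0.478, against 0.126, 0.0845 and 0.158. No gene of these lists was at 0 in all 4 libraries. Klf4 had a level in cluster 1 of 0.0219 in Klf4 dEC, 0.0714 in Nos3 null, 0.0238 in Klf4 dEC Nos3 null and 0.0153 in control, and Nos3 of 0.00257, 0.0114, 0.00183 and 0.00256 in that order. Levels this low, and 3' tags that may lie outside a deleted part, do not check the genotypes, so each library is called by its label.

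The 5 markers given for cluster 1 were higher in it than in the other proximal tubule clusters (0, 3, 5, 6 and 12) in every library. Markers given for a cluster are genes high in it, so this gap is a description only. Of all 3985 genes compared, 61 (1.53%) were at least 2-fold above each of these clusters in every library. Cyp7b1 (chromosome 3, 18071950 to 18243338, minus strand; all gene coordinates are on mm10) had levels of 43.6 in Klf4 dEC (43.0 to 44.3), 24.4 in Nos3 null (23.7 to 25.1), 39.4 in Klf4 dEC Nos3 null (38.8 to 40.0) and 54.5 in control (53.8 to 55.1), with 95% Poisson counting intervals in brackets. In the 20 columns of the other proximal tubule clusters it lay at 0.231 to 5.51. The log2 ratio of cluster 1 to the mean of the other 5 clusters in the same library, averaged over libraries, was 4.79 with an SD of 1.08, and it was lowest in Nos3 null at 3.19. In clusters 0, 3, 5 and 6 Cyp7b1 was at 1.47 to 2.17 in Nos3 null, against at most 0.778 in control. The SD is over the 4 libraries, which are 4 genotypes. All log2 ratios add 0.1 to both levels, which understates the ratios of low genes.

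Bcat1, the cytosolic branched-chain aminotransferase (chromosome 6, 144993835 to 145076184, minus strand), had levels of 4.66 in Klf4 dEC, 4.45 in Nos3 null, 10.5 in Klf4 dEC Nos3 null and 6.07 in control, against 0.0158 to 0.642 in the other proximal tubule columns (log2 ratio 4.50, SD 0.69). Rnf24, a RING finger protein gene (chromosome 2, 131298064 to 131352892, minus strand), had 21.5, 15.5, 21.3 and 34.97 in the same order, against 0.375 to 3.80 (3.79, SD 0.67). Aadat, an aminotransferase of lysine and kynurenine breakdown (chromosome 8, 60505932 to 60545677, plus strand), had 18.5, 12.6, 9.47 and 16.04, against 0.439 to 5.69 (2.54, SD 0.69). Mep1b (chromosome 18, 21061923 to 21100199, plus strand) had 6.88, 4.70, 5.50 and 6.33, against 0.0397 to 1.15 (3.31, SD 0.44). Over all 23 clusters cluster 1 had the highest mean level of each of the 5 genes. Outside the proximal tubule clusters the nearest was cluster 7 for Cyp7b1 (6.53), Rnf24 (4.70), Aadat (3.28) and Mep1b (1.19), and cluster 18 for Bcat1 (3.07).

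**Figure D1:**
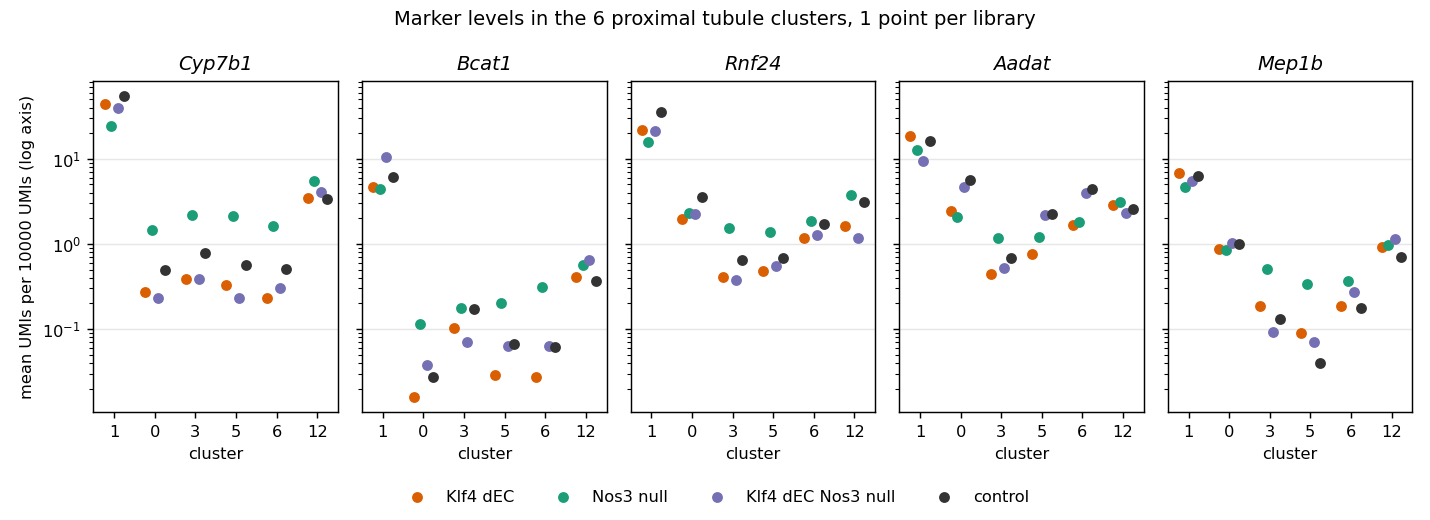
Levels (mean UMIs per 10000 UMIs, log axis) of the 5 markers given for cluster 1 in the 6 proximal tubule clusters, 1 point per library. In all 5 panels the 4 points of cluster 1 lie above every point of clusters 0, 3, 5, 6 and 12. Markers given for a cluster are genes high in it, so this gap is a description only. For Cyp7b1 the points of cluster 1 run from 24.4 to 54.5, and the other clusters reach 5.51.

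Promoters are shown because these markers are high together in 1 cluster. RefSeq windows (build GRCm38.p6, the assembly of mm10, 250 bases before to 50 after the start) were matched for Bcat1, Rnf24 and Aadat, while Cyp7b1 and Mep1b are named only. Letters searched on both strands were an HNF1 motif (GTTAAT), an HNF4 motif (CAAAGTCCA) and the core inside it (AAAGTCCA), a steroid receptor motif (AGAACA) and a TATA box (TATAAA). HNF1 and HNF4 factors act throughout the proximal tubule, and the steroid receptor motif is bound by steroid hormone receptors. Capitals mark the matches. Aadat (chr8:60505874-60506173, plus strand) holds the HNF4 motif on the opposite strand at bases -72 to -64 from its start, and the upstream Bcat1 window (chr6:145076108-145076407, minus strand) holds the TATA letters at bases -219 to -214.
Aadat: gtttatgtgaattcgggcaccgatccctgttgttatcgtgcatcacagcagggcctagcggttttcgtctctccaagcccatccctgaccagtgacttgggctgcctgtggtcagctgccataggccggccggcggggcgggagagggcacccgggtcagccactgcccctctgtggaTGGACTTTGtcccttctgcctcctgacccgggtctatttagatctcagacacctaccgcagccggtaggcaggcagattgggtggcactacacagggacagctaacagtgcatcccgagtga
Bcat1: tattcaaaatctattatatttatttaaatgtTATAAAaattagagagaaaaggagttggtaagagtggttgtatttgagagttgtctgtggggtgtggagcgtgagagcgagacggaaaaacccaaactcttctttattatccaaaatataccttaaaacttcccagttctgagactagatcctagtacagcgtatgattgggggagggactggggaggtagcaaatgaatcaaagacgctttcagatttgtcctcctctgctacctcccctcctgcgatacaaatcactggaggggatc
The windows of Rnf24 (chr2:131352843-131353142) and of the other Bcat1 start (chr6:145048763-145049062), both on the minus strand, hold none of these letters. Of 32851 RefSeq windows of this length, 0.475% hold the HNF4 motif, 1.25% its core, 7.10% the HNF1 motif, 18.97% the steroid receptor motif and 13.6% the TATA letters. A match is a run of letters, not a bound site.

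Beyond the given markers, the highest genes of cluster 1 included Chrm3, Slc22a19, Mro and Fgf1, and the lowest Slc5a2, Alpl and Slc7a8. Of 3985 genes whose higher level reached 0.5, 281 (7.05%) were at least 2-fold higher and 342 (8.58%) at least 2-fold lower by the mean over libraries. In 4 of 4 libraries, 190 (4.77%) were higher and 201 (5.04%) lower, and 61 (1.53%) stood at least 2-fold above each of the other 5 clusters in every library. Of those 61, 51 had their highest mean level of all 23 clusters in cluster 1, and for 28 the nearest cluster outside the proximal tubule ones was cluster 7. By single clusters, the number of genes past 2-fold was 342 of 3821 genes (8.95%) against cluster 0, 506 of 3866 genes (13.1%) against cluster 6, 708 of 3920 genes (18.1%) against cluster 5, 926 of 4034 genes (23.0%) against cluster 3 and 1201 of 4520 genes (26.6%) against cluster 12. Cluster 12 was shallow, with medians of 782 to 1016 UMIs over the libraries, and without it 108 genes stood above every other proximal tubule cluster.

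Among the 15 highest genes was Chrm3, the M3 muscarinic acetylcholine receptor, with levels of 7.69 in Klf4 dEC, 7.63 in Nos3 null, 7.47 in Klf4 dEC Nos3 null and 6.33 in control, against at most 2.22 in the other proximal tubule columns (log2 ratio 3.53, SD 0.61). It was higher still in cluster 10, at 17.6. Fgf1, acidic fibroblast growth factor, had 33.5, 47.6, 32.9 and 34.96 in the same order, against 1.39 to 11.6 (3.09, SD 0.43). C8a, the alpha chain of complement component 8, had 4.33, 2.34, 2.85 and 3.05, against at most 0.970 (3.02, SD 0.41). These 3 genes were picked for being higher in cluster 1 in every library, so the gap between their ranges is a description only. Slc22a19, an organic anion transporter, had 2.95, 1.82, 2.27 and 2.97, against at most 0.448 (3.51, SD 0.58), and Slco4c1, a transporter of the same substrate class, 1.78, 1.15, 1.87 and 2.06, against at most 0.555 (2.96, SD 0.65). The 15 also held 4 of the given markers, and the rest were Mro, Runx1t1 (a transcriptional corepressor), Methig1, Mpped1, Myo5a (an unconventional myosin) and Col23a1 (a transmembrane collagen), with log2 ratios of 3.01 to 3.48. Mro was uneven across libraries, at 4.91 in Klf4 dEC, 1.35 in Nos3 null, 1.10 in Klf4 dEC Nos3 null and 1.69 in control.

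The 10 lowest genes included 3 transporters known from the early segments. Slc5a2, the sodium-glucose cotransporter SGLT2, had levels of 0.345 in Klf4 dEC, 0.421 in Nos3 null, 0.274 in Klf4 dEC Nos3 null and 0.244 in control, against means of 12.6 in cluster 3 and 7.02 in cluster 5 (log2 ratio -3.77, SD 0.33). Cluster 0 was low too, at 0.198. Slc7a8, a basolateral neutral amino acid transporter, had 0.370, 0.682, 0.345 and 0.222 in the same order, against 13.8 in cluster 3 (-3.49, SD 0.56). Slc5a12, a lactate transporter, had 1.49, 3.07, 1.31 and 2.34, against 44.2 in cluster 3 (-3.32, SD 0.99). For Slc5a2, Slc7a8 and Slc5a12 the highest of the 4 cluster 1 levels was that of Nos3 null. Alpl (alkaline phosphatase), Slc16a14, Gldc (glycine decarboxylase), Car12 (a carbonic anhydrase), Itpr2 (an inositol trisphosphate receptor), Cgnl1 (a junction protein) and Chrna4 (a nicotinic receptor subunit) were at -3.59 to -3.22.

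By segment lists cluster 1 was S3-like. Of 8 S1 genes, 8 were at least 2-fold lower and 0 higher (beside 8.58% and 7.05% of all genes), with a median log2 ratio of -3.02, beside -0.0083 over all 3985 genes. Of 7 S2 genes, 6 were lower, with a median of -2.22, among them the organic anion transporters Slc22a6 (-2.33) and Slc22a8 (-2.74) and the cytochrome P450 Cyp4b1 (-2.22), while Slco1a1 was at -0.94. All 12 S3 genes of the list that are in the table reached a level of 0.5, and 9 were at least 2-fold higher and 12 lay above 0, with a median of 1.60. Of the 8 S1 genes 4 reached 0.5 in the other clusters alone, and of the 7 S2 genes 3, so these could only come out lower. Of the 12 S3 genes 1 reached 0.5 in cluster 1 alone and could only come out higher. Slc6a18, a neutral amino acid transporter, was at 9.77 in Klf4 dEC, 14.6 in Nos3 null, 11.7 in Klf4 dEC Nos3 null and 13.02 in control, against means of 5.96 in cluster 0 and 0.462 in cluster 3 (log2 ratio 2.37, SD 0.20). Ghr, the growth hormone receptor, was at 205, 207, 190 and 296 in the same order, against 95.02 in cluster 0 and 27.7 in cluster 3 (2.16, SD 0.24). Slc7a13, a cystine and acidic amino acid transporter, was at 27.2, 19.5, 25.9 and 24.9, against 14.1 in cluster 0 and 1.78 in cluster 3 (2.00, SD 0.58). For these 3 genes cluster 0 had the next highest mean of the proximal tubule clusters. The 5 given markers are not in the S3 list.

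**Figure D2:**
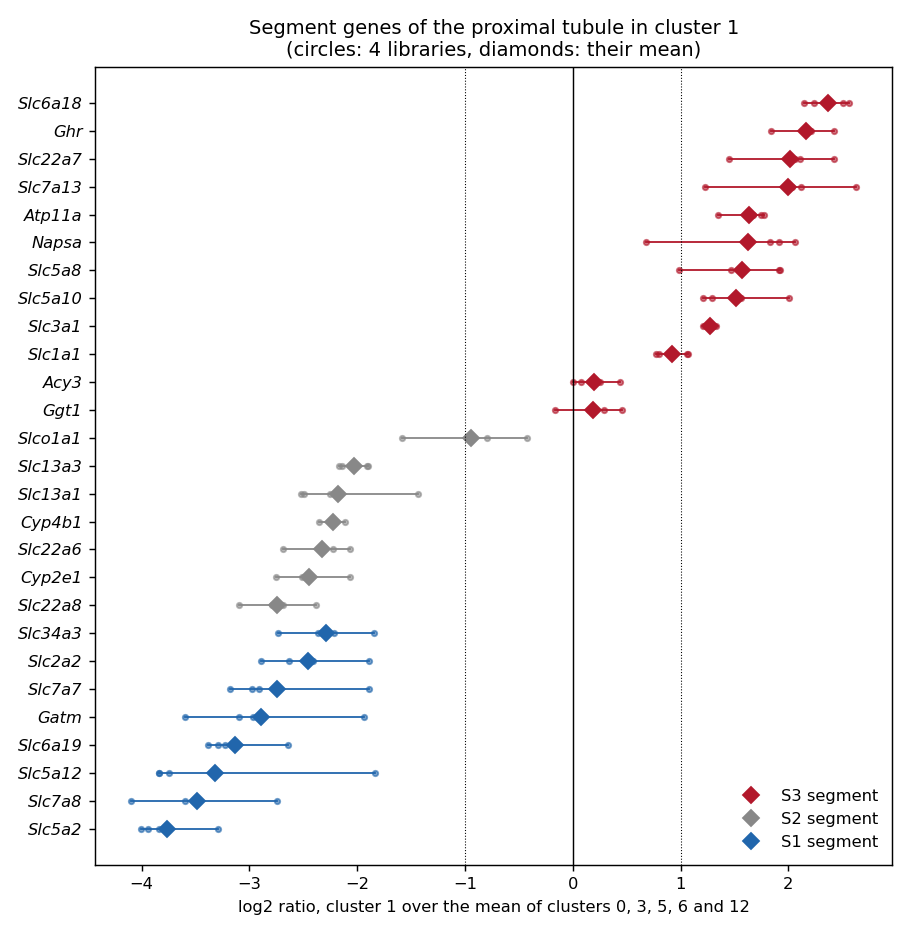
Log2 ratio of the level in cluster 1 to the mean of clusters 0, 3, 5, 6 and 12 in the same library for genes of the segment lists that reached a level of 0.5; circles are the 4 libraries, diamonds their mean, dotted lines the 2-fold limits. All 12 S3 diamonds lie above 0, and all 8 S1 diamonds lie below -1, from -3.77 to -2.29. Of the 8 S1 genes 4 reached 0.5 in the other clusters alone, so these could only lie below 0.

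General proximal tubule genes were mixed: of 14, 0 were at least 2-fold higher and 5 lower (beside 7.05% and 8.58% of all genes), with a median of -0.49. Of these 14, 1 reached 0.5 in the other clusters alone. Slc34a1, the main sodium-phosphate cotransporter, was at 9.61 in Klf4 dEC, 10.4 in Nos3 null, 9.81 in Klf4 dEC Nos3 null and 9.10 in control, against means of 41.8 to 75.6 in the other 5 clusters (log2 ratio -2.72, SD 0.17). The bicarbonate cotransporter Slc4a4 (-1.74), the endocytic adaptor Dab2 (-2.05), argininosuccinate synthase Ass1 (-2.17) and the inositol oxygenase Miox (-1.86) were lower too. The endocytic receptors Lrp2 (-0.29) and Cubn (0.39) and the transcription factor Hnf4a (0.035) were within 2-fold, and Hnf4a had levels of 4.40, 4.17, 4.88 and 4.02 in the same order of libraries, against means of 3.25 to 4.60. Of 18 transcription factor genes, 2 were higher and 4 lower, beside 7.05% and 8.58% of all genes, so the count of higher ones is near the background. The estrogen receptor Esr1 was at 6.24, 7.64, 4.73 and 6.35, against at most 2.44 (2.95, SD 0.39), and the thyroid hormone receptor Thrb at 24.2, 19.9, 15.8 and 17.2, against 3.44 to 12.1 (1.44, SD 0.24). Maf (-2.12), the coactivator Ppargc1a (-1.58), the bile acid receptor Nr1h4 (-1.36) and Ppara (-1.28), which controls fatty acid oxidation, were lower.

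Of the oxysterol and bile acid genes, 8 of the 15 in the table reached a level of 0.5, 2 of them in cluster 1 alone and 0 in the other clusters alone. Of these 8, 5 were at least 2-fold higher and 1 lower, beside 7.05% and 8.58% of all genes. Cyp7b1, a given marker, is 1 of the higher ones and the receptor Nr1h4 the lower one. Akr1d1, the steroid 5-beta-reductase, was at 2.10 in Klf4 dEC, 2.93 in Nos3 null, 3.02 in Klf4 dEC Nos3 null and 3.19 in control, against means of 0.222 to 0.730 in the other clusters (log2 ratio 2.39, SD 0.25). Acox2, the peroxisomal oxidase of bile acid side chains, was at 3.80, 2.96, 2.59 and 2.77 in the same order, against means of 0.178 to 1.09 (2.22, SD 0.33). The bile acid transporter Slc10a2 (1.62) and the sterol carrier Scp2 (1.14) were higher, and the sterol 27-hydroxylase Cyp27a1 was at -0.37. Of the brush border peptidase and peptide uptake genes, 8 of the 15 in the table reached a level of 0.5, 2 of them in cluster 1 alone and 2 in the other clusters alone. Of these 8, 4 were at least 2-fold higher, the given marker Mep1b among them, and 2 lower, beside the same shares of all genes. Mep1a, the alpha subunit of meprin, was at 8.24, 5.77, 7.73 and 6.38, against means of 0.790 to 3.88 (1.57, SD 0.22), beside Mep1b at 3.31. Neprilysin (Mme, 2.12) and the peptide transporter Slc15a2 (1.56) were higher, and the glutamate carboxypeptidase Folh1 (-2.66) and aminopeptidase A (Enpep, -1.72) were lower.

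Genes of the amino acid pathways that Bcat1 and Aadat belong to, and of other tubule functions, were counted where they reached a level of 0.5. The counts stand beside 7.05% of all genes higher and 8.58% lower, and in these lists up to 3 genes reached 0.5 in cluster 1 alone and up to 5 in the other clusters alone. Branched-chain amino acid genes had 3 higher and 1 lower of 17: Bcat1, the carboxylase subunit Mccc2 (1.11) and the phosphatase Ppm1k (1.11) were higher, and the dehydrogenase subunit Bckdhb (-1.94) lower. Tryptophan and NAD genes had 3 higher and 2 lower of 10: Aadat, the kynurenine aminotransferase Kyat3 (1.50) and the dioxygenase Ido2 (1.77) were higher, and Acmsd (-2.07) and Nmnat3 (-1.03) lower. Amino acid transporters had 5 higher and 8 lower of 15. The taurine transporter Slc6a6 was at 10.2 in Klf4 dEC, 17.3 in Nos3 null, 12.7 in Klf4 dEC Nos3 null and 11.5 in control, against means of 3.83 to 4.20 in the other clusters (log2 ratio 1.64, SD 0.19). Sugar and monocarboxylate transporters had 3 higher and 4 lower of 10, organic ion transporters 4 higher and 5 lower of 22 and fatty acid oxidation genes 4 higher and 1 lower of 20. Gluconeogenesis and ammonia genes had 1 higher and 2 lower of 10, with the glutamine transporter Slc38a3 higher (2.46) and the sodium-proton exchanger Slc9a3 (-2.92) and glucose-6-phosphatase G6pc (-2.09) lower. Of 17 injury genes in the table, 2 reached a level of 0.5, Dcdc2a (2.38) and Spp1 (-1.66). Glucocorticoid targets had 0 higher and 2 lower of 7, male-biased genes 2 higher and 3 lower of 9 and mitochondrially encoded RNAs 0 higher and 6 lower of 10.

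Summed markers of each other cell type were low in cluster 1 beside the cluster where that sum was highest. The 5 macrophage markers summed to 1.16 in Klf4 dEC, 1.40 in Nos3 null, 1.45 in Klf4 dEC Nos3 null and 0.920 in control, against 26.0 in cluster 21. Most of that sum was Csf1r, the colony-stimulating factor receptor, at 1.07, 1.32, 1.39 and 0.845 in the same order, against at most 0.502 in the other proximal tubule columns and 1.70 in cluster 21 (log2 ratio 2.70, SD 0.39). The macrophage complement gene C1qa was at 0, 0, 0.00220 and 0.00319, all below the 3-count levels. Podocyte markers summed to at most 0.175, stromal markers to at most 0.0401 and cycling markers to at most 0.0490. Thick ascending limb markers (2.71 to 8.28) and distal convoluted tubule markers (3.11 to 6.14) were the highest sums of other types, both topped by Nos3 null. The former summed to 348 in cluster 4 and the latter to 273 in cluster 9.

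Between libraries, cluster 1 was compared in 5 pairs, which share libraries with each other. Genes entered where the higher level reached 0.5, and genes past 2-fold were counted. Ratios carry 95% counting intervals, which are for the ratio without the added 0.1, so they can lie outside the printed value, and which cover counting error only. Every gene counted also had an interval that left out equal levels. For genes given with both levels, the range and median of the log2 ratios of the other 5 proximal tubule clusters between the same libraries follow as "other clusters". The median can differ from the value in cluster 0, the cluster with the fewest genes past 2-fold against cluster 1. Where a gene is near 0 in the other clusters, the added 0.1 holds their ratios near 0, which does not show equal levels there. In the shallow cluster 12 a ratio can rest on levels below 3 counts.

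Between Klf4 dEC and control, 36 of 3597 genes (1.00%) were higher and 23 (0.639%) lower. Gclc, the catalytic subunit of glutathione synthesis, was at 20.3 in Klf4 dEC, against 6.91 in control (log2 ratio 1.54, 1.50 to 1.61, other clusters 0.46 to 1.61, median 0.93). Ppm1e, a protein phosphatase, was at 1.50 in Klf4 dEC, against 0.391 in control (1.71, 1.71 to 2.18, other clusters -0.21 to 0.77, median 0.25), and the libraries labelled Nos3 null (2.42) and Klf4 dEC Nos3 null (2.11) were above control as well. Mro was at 4.91 in Klf4 dEC, against 1.69 in control (1.48, 1.42 to 1.65, other clusters 0.13 to 1.05, median 0.46). Spag5, Gm15962, March1, Gm48321 and Gm28153 completed the 8 highest (1.47 to 1.60). Lower was Tet2, a 5-methylcytosine dioxygenase, at 7.06 in Klf4 dEC, against 20.7 in control (-1.54, -1.62 to -1.50, other clusters -1.24 to -0.24, median -0.70). Atp6v0a4, a proton pump subunit, was at 2.92, against 8.71 in control (-1.54, -1.67 to -1.48, other clusters -1.46 to -0.34, median -1.02). Control had the highest level of the 4 libraries for Tet2 and Atp6v0a4. Hao2, a peroxisomal hydroxyacid oxidase, was at 0.381, against 1.21 in control (-1.45, -1.93 to -1.42, other clusters -0.98 to -0.018, median -0.19), and Fam19a2 at 0.0824, against 0.503 (-1.73, -3.17 to -2.09, other clusters -0.31 to 0.78, median -0.036). In cluster 12 Fam19a2 was at 0.0716 in Klf4 dEC, below the 3-count level of 0.216, and at 0 in control. In the rest of the other clusters Fam19a2 was at most 0.0241 in either library. Adamts6, Gm13936, Acnat1 and Gm4450 completed the 8 lowest (-1.67 to -1.27).

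Farthest from the median of the other clusters in this pair were genes such as Aadat, at 18.5 in Klf4 dEC, against 16.04 in control (0.20, 0.16 to 0.25, other clusters -1.44 to 0.16, median -1.18). Reln, a secreted matrix protein gene, was at 1.24, against 0.517 in control (1.11, 1.04 to 1.48, other clusters -0.16 to 1.03, median 0.016). Gm38505 (1.43, median 0.18), Nuak2 (-0.25, median 0.92) and Csgalnact1 (-1.17, median -0.21) were also far from that median. Single clusters came closer: cluster 12 had 0.16 for Aadat and 1.03 for Reln, and cluster 0 had 1.07 for Gm38505 and -0.80 for Csgalnact1. Reln in cluster 12 was at 0.186 in Klf4 dEC and 0.0400 in control, below the 3-count levels of 0.216 and 0.280. Prlr, the prolactin receptor, and Slc7a12, an amino acid transporter, were under 0.5 in both libraries, at 0.0272 and 0.0494 in Klf4 dEC, against 0.413 and 0.323 in control. Of the 5 given markers 0 were higher and 0 lower past 2-fold, and of 12 S3 genes 0 were higher and 0 lower (median -0.30, beside 0.021 over all genes). With 1.00% of all genes higher and 0.639% lower, these counts are near the background.

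Between Nos3 null and control, 137 of 3770 genes (3.63%) were higher and 102 (2.71%) lower. Genes at 0.5 or more in both libraries had a median log2 ratio of 0.077, and with that shift removed the split was 113 higher and 112 lower. The highest was Slc8a1, a sodium-calcium exchanger of the distal tubule, at 8.21 in Nos3 null, against 0.759 in control (log2 ratio 3.28, 3.28 to 3.60, other clusters 1.32 to 3.40, median 3.07). Its level in cluster 11 was 636, and cluster 1 ranked 22 of 23. Slc12a3, the thiazide-sensitive cotransporter of the distal convoluted tubule, was at 2.11 in Nos3 null, against 0.381 in control (2.20, 2.22 to 2.72, other clusters 1.36 to 2.52, median 2.23), and at 192 in cluster 9. Phactr1, Mecom, Slit2, Gm26870 and Rgs6 were also among the 8 highest (2.18 to 2.59), with medians of 1.96 to 2.45 in the other clusters. Distal convoluted tubule markers summed to 6.14 in Nos3 null, against 3.11 in control, and their part in these differences was not tested. Ppm1e was at 2.42 in Nos3 null, against 0.391 in control (2.36, 2.39 to 2.87, other clusters 0.60 to 1.82, median 1.06).

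Among the lowest genes in Nos3 null was Wdr17, a WD repeat protein gene, at 2.06, against 14.1 in control (log2 ratio -2.72, -2.93 to -2.64, other clusters -1.99 to -0.23, median -1.61), while Klf4 dEC was at 34.7 and Klf4 dEC Nos3 null at 10.9. Gm29536, a transcript whose mean is highest in cluster 1 of all 23, was at 0.130 in Nos3 null, against 1.32 in control (-2.62, -3.95 to -2.79, other clusters -1.45 to 0.51, median -0.17). For Gm29536 cluster 0 was lower too, at -1.16. The -1.45 came from cluster 12, at 0 against 0.173 in control, where 3 counts correspond to 0.280. Also among the 8 lowest were Gm10787, Gm12353, Far1os, Gm16193, Gm11342 and Gm11520 (-3.10 to -2.51). Of the 5 given markers, 2 were lower past 2-fold, beside 2.71% of all genes. They were Cyp7b1, described with the sex-biased genes, and Rnf24, at 15.5 in Nos3 null, against 34.97 in control (-1.17, -1.22 to -1.12, other clusters -0.60 to 1.11, median 0.29). Csgalnact1, a chondroitin sulphate synthesis gene, was at 1.16, against 3.39 in control (-1.47, -1.75 to -1.36, other clusters -1.34 to 0.71, median 0.55), while clusters 0 (-1.34) and 6 (-0.95) were lower too. Magi2, a scaffold protein gene that reached 802 in cluster 15, was at 6.93, against 1.99 in control (1.75, 1.68 to 1.92, other clusters -0.37 to 0.81, median 0.059). Rbfox1, an RNA-binding splicing factor gene, was at 0.586, against 0.0791 in control (1.94, 2.37 to 3.44, other clusters -0.35 to 1.08, median -0.0021). Of 8 S1 genes 5 entered, 3 of them through Nos3 null alone, so no count of directions is given. The creatine synthesis enzyme Gatm was at 0.953 in Nos3 null, against 0.305 in control (1.38, 1.34 to 1.96, other clusters 0.0035 to 1.15, median 0.59), and Slc7a8 at 0.682, against 0.222 (1.28, 1.25 to 1.99, other clusters -1.24 to 0.63, median 0.18). Of 12 S3 genes 0 passed 2-fold, beside 3.63% of all genes higher and 2.71% lower.

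Some genes with a known sex difference in mouse kidney passed 2-fold in Nos3 null. Of 9 male-biased genes that entered, 1 of them through control alone, 4 were at least 2-fold lower in Nos3 null than in control, beside 2.71% of all genes. The given marker Cyp7b1 is 1 of these 4. Of the 9, 0 lay above 0, with a median of -0.71 beside 0.092 over all genes. Cyp7b1 was at 24.4 in Nos3 null, against 54.5 in control (log2 ratio -1.16, -1.20 to -1.12), while in the other 5 clusters its ratio ran from 0.70 to 1.76. Kap, the kidney androgen-regulated protein gene, was at 7.78, against 18.3 in control (-1.23, -1.31 to -1.16, other clusters -2.39 to -1.14, median -1.70). Acsm3, an acyl-CoA synthetase, was at 3.91, against 9.30 in control (-1.23, -1.36 to -1.14, other clusters -1.09 to 0.61, median -0.51), and Nudt19, a peroxisomal hydrolase, at 3.81, against 7.91 (-1.04, -1.17 to -0.95, other clusters -1.35 to 0.41, median -0.60). Nos3 null was the lowest of the 4 libraries for these 4 genes. Kap was at 21.7 in Klf4 dEC, 7.78 in Nos3 null, 27.1 in Klf4 dEC Nos3 null and 18.3 in control.

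Of 6 female-biased genes, 3 entered, all through Nos3 null alone, so their values are given without a count of directions. Prlr, the prolactin receptor, was at 0.0272 in Klf4 dEC, 1.80 in Nos3 null, 0.362 in Klf4 dEC Nos3 null and 0.413 in control (Nos3 null over control 1.89, 1.87 to 2.37, other clusters 0.25 to 1.19, median 1.09). Slc7a12, an amino acid transporter gene, was at 0.0494, 1.10, 0.332 and 0.323 in the same order (Nos3 null over control 1.50, 1.47 to 2.06, other clusters 0.88 to 1.04, median 1.01). Nos3 null was the highest library for Prlr and Slc7a12, and Klf4 dEC the lowest. The other gene that entered, Cyp2a4, was at 0.432 in Klf4 dEC, 0.690 in Nos3 null, 0.974 in Klf4 dEC Nos3 null and 0.464 in control. For Cyp2a4 the highest library was thus Klf4 dEC Nos3 null. The Y-linked genes were present in all 4 libraries: Uty was at 3.16 in Klf4 dEC, 2.66 in Nos3 null, 3.10 in Klf4 dEC Nos3 null and 3.04 in control, and Ddx3y at 0.995, 0.756, 1.38 and 0.839 in that order. Xist, expressed from the inactive X chromosome, was at most 0.0145, in Nos3 null, where 3 counts correspond to 0.0142. The depth, mitochondrial and other-type values of the library labelled Nos3 null move with these differences, and their part was not tested.

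**Figure D3:**
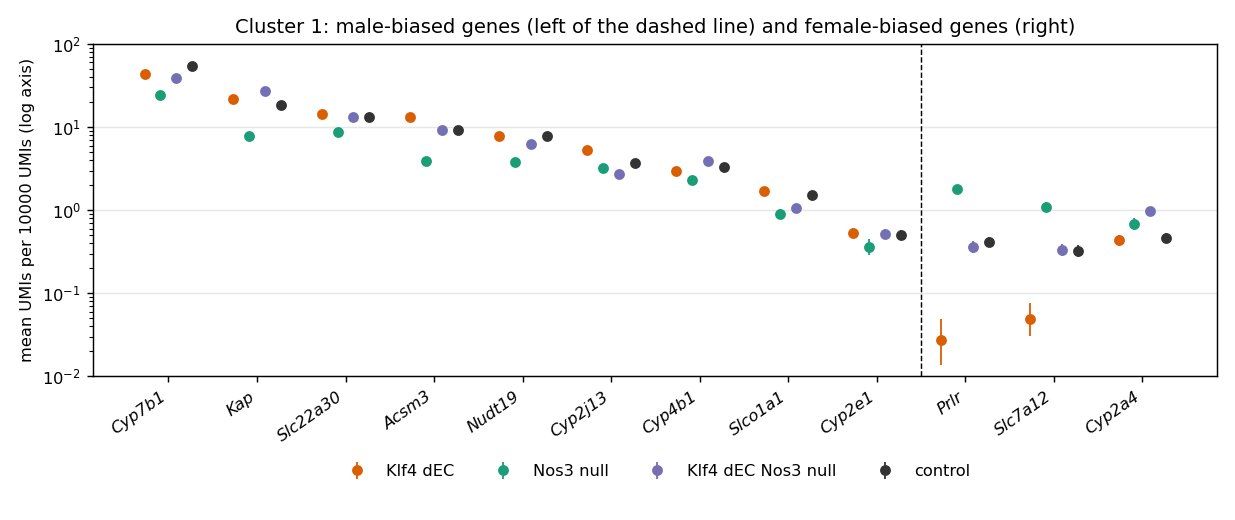
Levels in cluster 1 (mean UMIs per 10000 UMIs, log axis) of genes known to be male-biased (left) or female-biased (right) in mouse kidney, 1 point per library with its 95% Poisson counting interval. The Nos3 null point is the lowest of the 4 for Cyp7b1 and Kap and the highest for Prlr (1.80) and Slc7a12 (1.10). For Cyp2a4 the highest point is Klf4 dEC Nos3 null (0.974).

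Between Klf4 dEC Nos3 null and Nos3 null, 150 of 4009 genes (3.74%) were higher and 96 (2.39%) lower. Slc8a1 was at 0.389 in Klf4 dEC Nos3 null, against 8.21 in Nos3 null (log2 ratio -4.09, -4.64 to -4.17, other clusters -4.22 to -3.23, median -3.93), and Phactr1, Mecom, Slc12a3, Slit2 and Tmem117 were also among the 8 lowest (-2.94 to -2.21). Thick ascending limb markers summed to 4.14 in Klf4 dEC Nos3 null, against 8.28 in Nos3 null, and their part was not tested. Egr1, an immediate-early transcription factor, was at 0.116, against 0.873 in Nos3 null (-2.17, -3.40 to -2.45, other clusters -1.07 to 0.20, median -0.60). Cyp7b1 was at 39.4, against 24.4 in Nos3 null (0.69, 0.65 to 0.74, other clusters -2.74 to -0.42, median -2.23), so cluster 1 and the other clusters differed in opposite directions. Slc5a4a, a gene of the sodium-glucose cotransporter family, was at 1.32, against 0.194 (2.27, 2.30 to 3.26, other clusters -0.29 to 1.21, median 0.023), and Ptn, the growth factor pleiotrophin, at 1.24, against 0.280 (1.82, 1.75 to 2.56, other clusters -0.79 to 1.45, median -0.16). Cluster 0 had 1.21 for Slc5a4a and 1.45 for Ptn. The 8 highest were Mettl23, Gm10787, Far1os, Gm16552, Gm26804, Gm29536, Wdr17 and Gm48321 (2.35 to 2.68). Of 9 male-biased genes, 1 of which entered through Klf4 dEC Nos3 null alone, 2 were higher past 2-fold, Kap (1.78) and Acsm3 (1.22), beside 3.74% of all genes. Of the 9, 8 lay above 0, with a median of 0.69 beside 0.054 over all genes. Prlr (-2.04) and Slc7a12 (-1.47), which entered through Nos3 null alone, were lower. Cyp2a4, also female-biased, was higher, at 0.974 in Klf4 dEC Nos3 null, against 0.690 in Nos3 null. Slc5a12 was at 1.31 in Klf4 dEC Nos3 null, against 3.07 in Nos3 null (-1.17, -1.40 to -1.06, other clusters -1.92 to 1.18, median 0.55), and cluster 0 was at -1.92.

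Between Klf4 dEC Nos3 null and Klf4 dEC, 57 of 3908 genes (1.46%) were higher and 50 (1.28%) lower. The median log2 ratio of genes at 0.5 or more in both libraries was 0.12, and with that shift removed the split was 44 higher and 70 lower. Stox2, a winged-helix gene, was at 2.07 in Klf4 dEC Nos3 null, against 0.302 in Klf4 dEC (log2 ratio 2.43, 2.50 to 3.06, other clusters -0.67 to 1.72, median 0.018). Cacnb4, a calcium channel subunit, was at 2.62, against 0.288 in Klf4 dEC (2.81, 2.91 to 3.47, other clusters 0.45 to 1.92, median 0.72). Cluster 0 was higher as well, at 1.72 for Stox2 and 1.92 for Cacnb4. Gfra1, a receptor subunit for glial cell line-derived neurotrophic factor, was at 0.815, against 0.224 (1.50, 1.53 to 2.21, other clusters -0.035 to 0.82, median 0). In cluster 12 Gfra1 was at 0.0767 in Klf4 dEC Nos3 null, below the 3-count level of 0.336, and at 0 in Klf4 dEC. In the rest of the other clusters Gfra1 was at most 0.00770 in either library. For these 3 genes the library labelled Nos3 null was also above Klf4 dEC, at 1.28 for Stox2, 1.13 for Cacnb4 and 0.967 for Gfra1. Nt5e, the ectonucleotidase that makes adenosine, was at 10.7, against 2.76 in Klf4 dEC (1.92, 1.87 to 2.05, other clusters 1.26 to 3.15, median 2.16). Also among the 8 highest were Hsp90ab1, Gm4450, Actg1 and Glul (1.53 to 1.68), of which Hsp90ab1 is a chaperone, Actg1 an actin and Glul glutamine synthetase.

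Irs2, an insulin receptor substrate, was at 0.191 in Klf4 dEC Nos3 null, against 1.34 in Klf4 dEC (log2 ratio -2.31, -3.17 to -2.47, other clusters -1.44 to 1.16, median -1.23), and Lpl, lipoprotein lipase, at 0.737, against 2.92 (-1.85, -2.17 to -1.80, other clusters -1.16 to 0.019, median -0.42). Also among the 8 lowest were Sema3c, Mro, Gm15962, Gm9968 and Wdr17 (-2.17 to -1.66). Of the 5 given markers 1 passed 2-fold, beside 1.46% of all genes higher and 1.28% lower. This was Bcat1, at 10.5 in Klf4 dEC Nos3 null, against 4.66 in Klf4 dEC (1.16, 1.09 to 1.25, other clusters -0.24 to 0.53, median 0.34). Aadat was at 9.47, against 18.5 in Klf4 dEC (-0.96, -1.02 to -0.91, other clusters -0.32 to 1.39, median 0.90). Car5b, a mitochondrial carbonic anhydrase, was at 0.542, against 0.490 in Klf4 dEC (0.12, -0.14 to 0.42, other clusters 0.79 to 1.84, median 1.69), so the median of the other clusters was above that of cluster 1.

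Between Klf4 dEC Nos3 null and control, 43 of 3863 genes (1.11%) were higher and 13 (0.337%) lower. The median ratio was 0.13, and with that shift removed the split was 22 higher and 21 lower. Stox2 was at 2.07 in Klf4 dEC Nos3 null, against 0.339 in control (log2 ratio 2.31, 2.37 to 2.86, other clusters -0.64 to 1.63, median -0.38). Ppm1e was at 2.11, against 0.391 in control (2.17, 2.21 to 2.66, other clusters -0.92 to 1.72, median 0.081), and Adgrb3, an adhesion receptor gene, at 1.43, against 0.398 (1.62, 1.61 to 2.08, other clusters -0.047 to 1.25, median 0.13). In cluster 0 the ratios were 1.63 for Stox2, 1.72 for Ppm1e and -0.047 for Adgrb3. In cluster 12 Adgrb3 was at 0.138 in Klf4 dEC Nos3 null, below the 3-count level of 0.336, and at 0 in control. In the rest of the other clusters Adgrb3 was at most 0.0455 in either library. The others of the 8 highest were Gm47283, Ccdc152, Cacnb4, Hsp90ab1 and Actg1 (1.58 to 1.95), and in the other clusters Hsp90ab1 was at 1.31 to 1.56 and Actg1 at 1.10 to 1.77. Lower were Sema3c, a secreted guidance protein, at 0.641, against 3.80 in control (-2.40, -2.76 to -2.38, other clusters -1.66 to -0.72, median -1.40), and Col6a6, a collagen chain, at 0.304, against 1.18 (-1.66, -2.24 to -1.68, other clusters -1.26 to 0.0026, median -0.13). The -1.26 of Col6a6 came from cluster 12, at 0 against 0.139 in control, where 3 counts correspond to 0.280. The others of the 8 lowest were Gm11520, Fam19a2, Slc25a25, H3f3b, Mcc and Fmo2 (-2.35 to -1.33). Of the 5 given markers 0 passed 2-fold, of 12 S3 genes 0 and of 9 male-biased genes 0. With 1.11% of all genes higher and 0.337% lower, these counts are near the background.

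**Figure D4:**
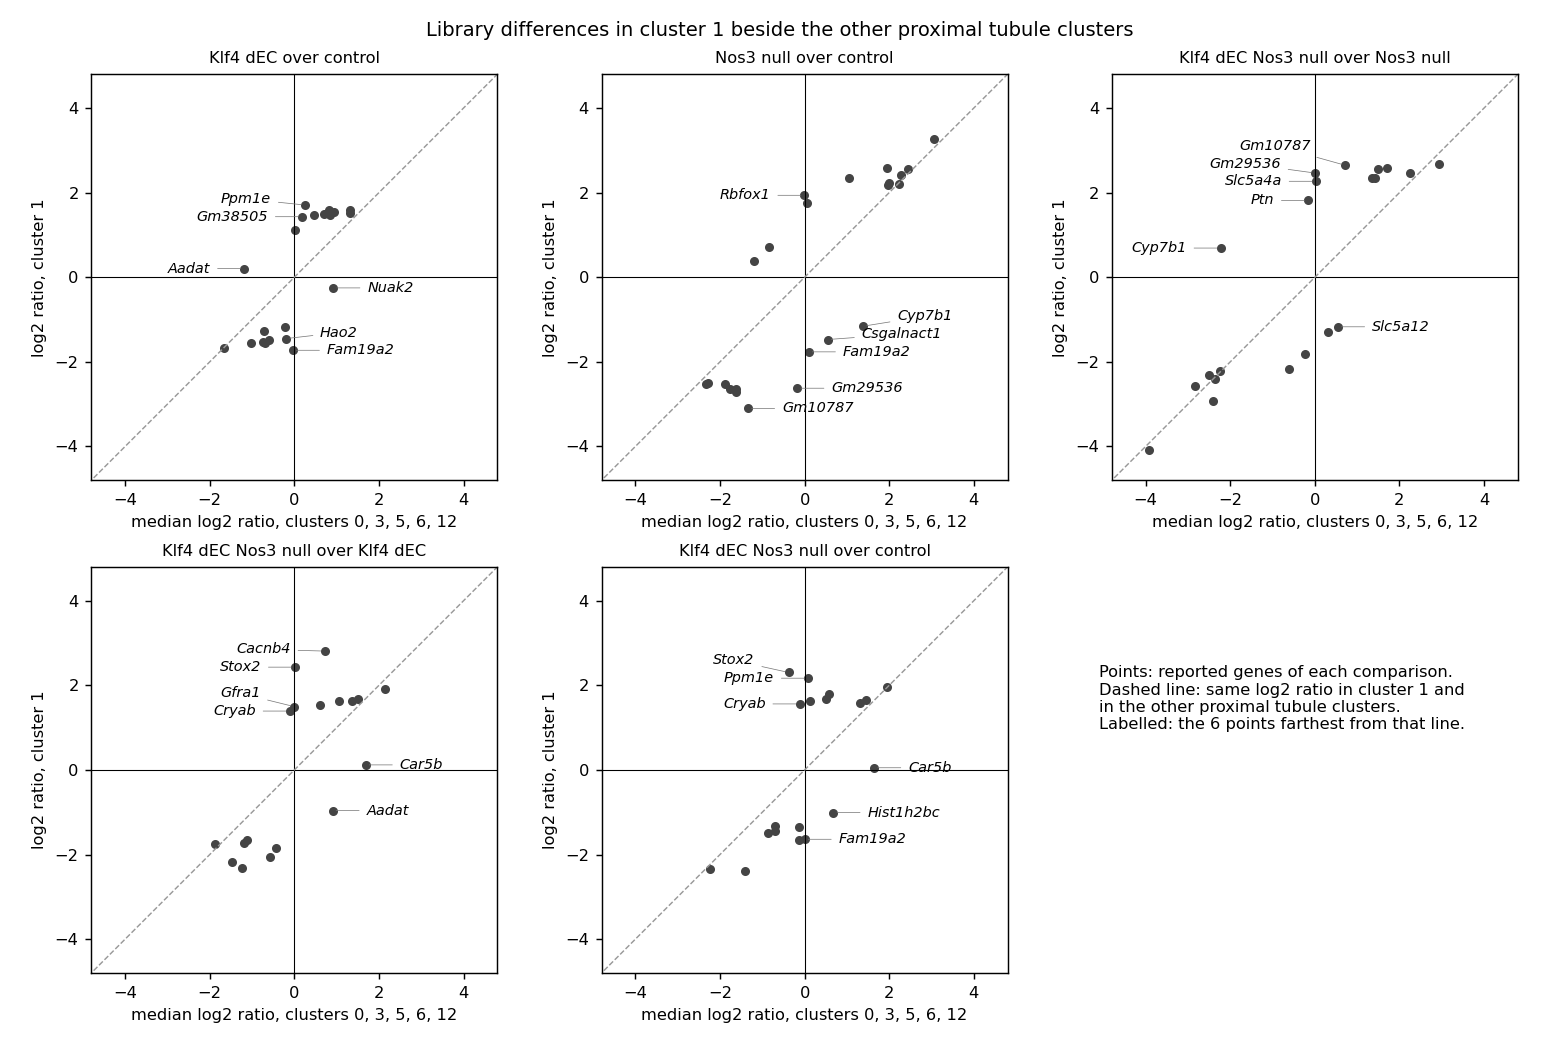
Log2 ratio in cluster 1 (vertical axis) against the median log2 ratio of clusters 0, 3, 5, 6 and 12 (horizontal axis) for the reported genes of each of the 5 library pairs. Genes near the dashed line, such as Slc8a1 at 3.28 against 3.07 in Nos3 null over control, differed about as much in that median, and labelled genes lie farthest from it, such as Cyp7b1 at -1.16 against 1.39 in that pair.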

How the data were processed

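The deposited table holds the authors' normalized signal, 21046 genes by 92 columns (23 clusters in 4 libraries), and every column sums to 10000. The submitters' processing notes name Seurat and Cell Ranger and the mm10 build; sources used here do not give versions, cell filters, doublet treatment or the clustering method, and barcodes were not analysed here. Library titles tie each column to its library, with 0 columns left over.

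Nuclei numbers and depths are inferred: the reciprocals of the 200 lowest distinct values of a column share the nuclei number as a divisor (relative tolerance 3e-14, at least 70% of values). This was tested on simulated data. Intervals are exact Poisson for levels and Clopper-Pearson for ratios, at 95%. Log2 ratios used a pseudocount of 0.1, genes entered at a level of 0.5, and the limit was a log2 ratio of 1. Python 3.11.15, numpy 2.4.6, pandas 2.3.3, scipy 1.17.1 and matplotlib 3.10.9 were used.

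The members, lists, limits and alternatives were chosen with earlier results of these data known. Named genes are the 5 given markers, the 15 highest and 10 lowest of the cluster comparison among genes past the limit in 4 of 4 libraries, the 8 highest and 8 lowest of each library pair, the 4 highest and 4 lowest after subtracting the median of the other clusters, up to 4 per list, the targeted genes and the sex genes. Further list members, such as Hnf4a, Lrp2, Cubn, Cyp27a1, Slc4a4 and Hspa8, were named after their values were seen. Coordinates are from GENCODE M21. A few genes that the naming rule picks are not reported here, in the text or the figures.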

Additional observations from a re-analysis of the deposited data

Results flagged for a closer look

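For 3 named genes the same labelled change went past 2-fold in opposite directions on the 2 backgrounds in cluster 1. The difference between the backgrounds was not tested, since each genotype has 1 library. Csgalnact1, a chondroitin sulphate synthesis gene, had a log2 ratio of -1.17 between Klf4 dEC and control and 1.23 between Klf4 dEC Nos3 null and Nos3 null, with levels of 1.45 in Klf4 dEC, 1.16 in Nos3 null, 2.85 in Klf4 dEC Nos3 null and 3.39 in control. Clusters 0, 5 and 6 differed in the same directions, and clusters 3 and 12 did not. In cluster 0 its levels were 2.20, 1.49, 4.91 and 3.91 in that order of libraries. Gm4450 had ratios of -1.27 and 1.17 in cluster 1 in the same pairs. Irs2, an insulin receptor substrate, had 1.07 between Nos3 null and control and -2.31 between Klf4 dEC Nos3 null and Klf4 dEC, with levels of 1.34 in Klf4 dEC, 1.07 in Nos3 null, 0.191 in Klf4 dEC Nos3 null and 0.461 in control. Over all genes that entered both pairs, 6 of 3466 went past 2-fold in opposite directions for the Klf4 label, and 3 of 3538 for the Nos3 label.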

How the results depend on the processing

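No paired analysis was possible because each genotype has 1 library. Of the 623 genes past 2-fold in the cluster comparison, a pseudocount of 0.5 left 363 and a filter of 2 left 267, and leaving out 1 library gave 594 to 678. Of the 61 genes above every other proximal tubule cluster, the same settings left 29 and 32, 108 passed without cluster 12, and leaving out 1 library gave 67 to 74. With a pseudocount of 0.5, a filter of 2, and the median of the other proximal tubule clusters subtracted, the counts became 17, 25 and 9 between Klf4 dEC and control (59 as reported), 81, 66 and 90 between Nos3 null and control (239), 95, 75 and 68 between Klf4 dEC Nos3 null and Nos3 null (246), 35, 44 and 35 between Klf4 dEC Nos3 null and Klf4 dEC (107), and 20, 18 and 21 between Klf4 dEC Nos3 null and control (56). With no filter, Nos3 null against control gave 418 and Klf4 dEC Nos3 null against Nos3 null gave 446; a pseudocount of 0.02 gave 90 between Klf4 dEC Nos3 null and control. A larger pseudocount or filter leaves fewer low genes by construction, and a smaller pseudocount or no filter adds them. Leaving out a cluster or a library loosens the rule behind the 61 genes, which asks for every cluster and every library. The cause of the other moves was not tested. After the subtraction 7 named genes changed sign: Slc12a3 (-0.030) between Nos3 null and control, Mettl23 (-0.26), Mecom (0.27), Slit2 (0.20) and Tmem117 (0.031) between Klf4 dEC Nos3 null and Nos3 null, and Nt5e (-0.23) and Gm15962 (0.11) between Klf4 dEC Nos3 null and Klf4 dEC. Leaving out mitochondrially encoded genes, weighting clusters by nuclei, and requiring a counting interval without equal levels moved no count by over 1.5 times.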

Other observations

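Heat shock and actin genes and glutathione genes were listed after their values in cluster 1 had been seen, so their counts are a description only. Of 14 heat shock and actin genes 9 entered between Klf4 dEC Nos3 null and Klf4 dEC, 6 of them through Klf4 dEC Nos3 null alone, so no count of directions is given. Hspa8, a constitutive chaperone, was at 0.761 in Klf4 dEC, 1.10 in Nos3 null, 2.33 in Klf4 dEC Nos3 null and 0.951 in control. Cryab, a small heat shock protein and also a thin limb marker, was at 0.207, 0.126, 0.706 and 0.173 in the same order. Klf4 dEC Nos3 null was the highest library for both.

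Of 8 glutathione genes 1 was higher past 2-fold in Klf4 dEC over control, Gclc, beside 1.00% of all genes. The median was 0.25, beside 0.021 over all genes.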
